A study of Mus musculus with 48 samples.

Results

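V-J joining of the mouse Igκ light chain locus was compared between Ku70-/- and WT vAbl cells while both were kept in L67, an inhibitor of DNA ligases I and III. The 6 libraries whose labels give STI-571 with L67 at 5 μM and the signal end bait were used out of 48 in the series, 3 from Ku70-/- cells and 3 from WT cells. These cells are a mouse progenitor B cell line driven by the viral Abelson kinase. Every one of these cultures was arrested with STI-571, an Abelson kinase inhibitor, at 3 μM for 96 h, with L67 added on the same day, so the WT controls carried both agents too. Per the study's methods each genotype was a single clonal line (WT clone B, Ku70-deficient clone B1), so loss of Ku70 cannot be told apart from other differences between these lines. Another 6 signal end libraries, 3 of each genotype with STI-571 and DMSO, serve to set the L67 values beside those without it. The WT ones among them, and 3 WT libraries with STI-571 and L82-G17 at 25 μM, also helped to locate the Vκ break sites. The labels do not say whether libraries of a group came from separate cultures, and p-values measure only the spread between libraries. The assay reads junctions, so Ku70 itself was not measured here.

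RAG1/2 cuts beside a recombination signal sequence, a heptamer and a nonamer held apart by a spacer, and leaves a hairpin-sealed coding end (CE) and a blunt signal end (SE). In nonhomologous end joining (NHEJ) the Ku70/Ku80 ring binds both kinds of end, protects them and recruits the factors that bring in DNA ligase IV, and signal ends are normally joined to each other without loss of bases. Without Ku, ends can be joined by alternative end joining (A-EJ), which is known for trimmed ends and short stretches of shared bases (microhomology, MH). DNA ligases I and III are the other DNA ligases of mammalian nuclei, and both have been linked to A-EJ. In HTGTS-JoinT-seq, primers read out from a chosen bait end, here the signal end of the Jκ1 break, into the prey sequence joined to it. A signal end bait joined to a Vκ signal end is the ordinary signal joint, and one joined to a Vκ coding end is a hybrid joint. Vκ segments lie in either orientation. At deletional sites a signal joint closes an excised circle and a hybrid joint leaves an inversion, and at inversional sites it is the reverse.

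The bait end and the joints most often found show what the measurements are about. The Jκ1 signal end runs along chr6:70672517-70672555 (mm9, plus strand) up to the break, with nonamer and heptamer in capitals:
Jκ1 signal end: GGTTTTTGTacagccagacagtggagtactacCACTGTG
The signal sequence of Igkv1-135, the site with most junctions in either genotype, lies at chr6:67560503-67560530 on the plus strand, just after the coding exon of this deletional gene:
Igkv1-135 signal end: CACAGTGattcagacccgaACAAAAACT
When neither end loses a base, the 2 heptamers abut. This precise joint was listed 44640 times in the 3 WT libraries together and 437 times in the 3 Ku70-/- libraries, with both heptamers in capitals:
precise joint: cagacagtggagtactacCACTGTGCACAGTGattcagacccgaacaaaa
The commonest other direct joint to Igkv1-135 in Ku70-/- cells, listed 319 times, kept the bait whole and lost 2 bases of the prey heptamer, and what remained of both heptamers is in capitals:
trimmed direct joint: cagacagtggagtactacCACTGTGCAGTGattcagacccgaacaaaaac
The next was listed 354 times. The bait had lost 4 bases, and 3 bases, in capitals, could come from either end:
joint with MH: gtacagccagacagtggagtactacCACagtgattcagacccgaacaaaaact
The commonest direct hybrid joint in Ku70-/- cells, listed 544 times, joined the whole bait, its heptamer in capitals, to the coding end of Igkv12-46 after a loss of 8 coding bases:
direct hybrid joint: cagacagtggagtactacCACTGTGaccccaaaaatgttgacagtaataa
In the commonest hybrid joint with MH, listed 379 times at an unannotated break at chr6:69233787, the bait had lost 11 bases and 3 shared bases, in capitals, lie at the joint:
hybrid joint with MH: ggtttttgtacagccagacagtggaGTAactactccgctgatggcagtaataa
Insertions were best represented in WT cells, where this joint to Igkv16-104, with the added base in capitals and 3 bait bases lost, was listed 566 times:
joint with insertion: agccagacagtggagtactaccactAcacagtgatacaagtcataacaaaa

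Each library had been set to 500000 read pairs. Ku70-/- libraries listed 186665 to 198488 junctions and WT libraries 301603 to 334807. Copies made by amplification were kept in the lists, and WT and Ku70-/- libraries differed in how often a junction recurred. A distinct Vκ junction (the same bait end, prey position, prey strand and overlap or gap) was listed 9.93 to 11.3 times in Ku70-/- libraries and 136 to 177 times in WT libraries, and the commonest one made up 0.184% to 0.213% against 4.54% to 5.37% of Vκ junctions. Separate precise joints at a site are alike in all of these features, so counting each distinct junction once also merges independent WT joints. No library of the 6 stood apart in depth or in its Vκ junctions, but the second Ku70-/- library listed more translocations than the other two, as given below. Among the DMSO libraries, 1 Ku70-/- library held 954 distinct Vκ junctions against 13337 and 10693 in the other two, and that library is not listed among the signal end libraries in the study's supplement. Values that rest on it are given with and without it.

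V-J yield was lower in Ku70-/- cells. V-J recombination efficiency (V-J Eff), the Vκ junctions as a percentage of read pairs, was 30.3%, 29.5% and 27.8% in the Ku70-/- libraries and 63.6%, 61.1% and 57.0% in the WT libraries. The group means of 29.2% ± 1.25 and 60.6% ± 3.33 (SD, n = 3 each) were 2.07-fold apart, and the groups did not overlap. With 3 libraries against 3, the exact two-sided permutation test over 20 splits cannot go below p = 0.1, which this difference and 15 others of the 18 single-value comparisons made here reached. After Benjamini-Hochberg adjustment over the 18, each of these 16 exact permutation tests had p = 0.112. A difference is called here where the groups did not overlap. Counted once each, distinct Vκ junctions went the other way, with 14418, 13001 and 14019 in Ku70-/- libraries and 2156, 1728 and 2096 in WT libraries. The yield difference therefore holds for junctions as listed, copies included. Joints with longer bait losses than the lists hold, a ceiling described below, are left out of it, and their number is not known.

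Ends were trimmed far more in Ku70-/- cells. The bait end was intact, with no base lost before the break, in 9.60%, 10.2% and 9.89% of Ku70-/- Vκ junctions and in 95.1%, 95.7% and 95.3% of WT ones (means 9.89% ± 0.291 and 95.4% ± 0.275, SD, n = 3 each). The bait lost a median of 12 bases in each Ku70-/- library and 0 in each WT library. In Ku70-/- cells 64.9% of bait ends had lost over 7 bases, more than the heptamer, against 0.31% in WT cells, and 25.4% had lost over 20. No Vκ junction in any of the 6 libraries had lost more than 43 bait bases, a ceiling reached in all 3 Ku70-/- libraries, so longer losses on this side were not measured.

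Prey ends were trimmed as well. Of Vκ junctions within 100 bp of the break, 46.0%, 46.2% and 47.1% lay within 10 bp of it in Ku70-/- libraries and 99.6%, 99.7% and 99.5% in WT libraries (46.4% ± 0.562 and 99.6% ± 0.0935, SD, n = 3 each). Signal preys, which RAG1/2 leaves blunt, lost a median of 10 bases in every Ku70-/- library and 0 in every WT library. Vκ breaks were placed at pileups of WT signal end junctions, so low losses from WT signal preys were partly fixed in advance. This bears on the WT share within 10 bp and on precise joints too. The bait break came from the annotated Jκ1 segment instead. Coding preys, which must be opened from a hairpin, lost a median of 15, 15 and 14 bases in Ku70-/- libraries and 3, 3 and 2 in WT libraries. Coding preys that had lost no base were 1.20% to 1.90% of all coding preys in Ku70-/- libraries and 22.6% to 29.5% in WT libraries. Trimming was thus found on both kinds of prey and on the bait, and no group overlapped the other on any of these measures.

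The 2 ends of a Ku70-/- signal joint were mostly both trimmed. Both had lost bases in 79.1% of them, the bait alone in 9.91%, the prey alone in 7.08% and neither in 3.93%. In WT signal joints neither end had lost bases in 95.3%. Precise signal joints, whole at both ends and with nothing added, were 2.81%, 2.43% and 2.62% of signal joints in Ku70-/- libraries and 94.7%, 94.9% and 94.7% in WT libraries (2.62% ± 0.195 and 94.7% ± 0.135, SD, n = 3 each). By distinct junctions, where alike precise joints merge, they were 0.908% against 7.59%, and intact bait ends 6.97% against 40.9% of Vκ junctions, while preys within 10 bp were 38.8% against 94.3%. None of these overlapped either.

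**Figure D1:**
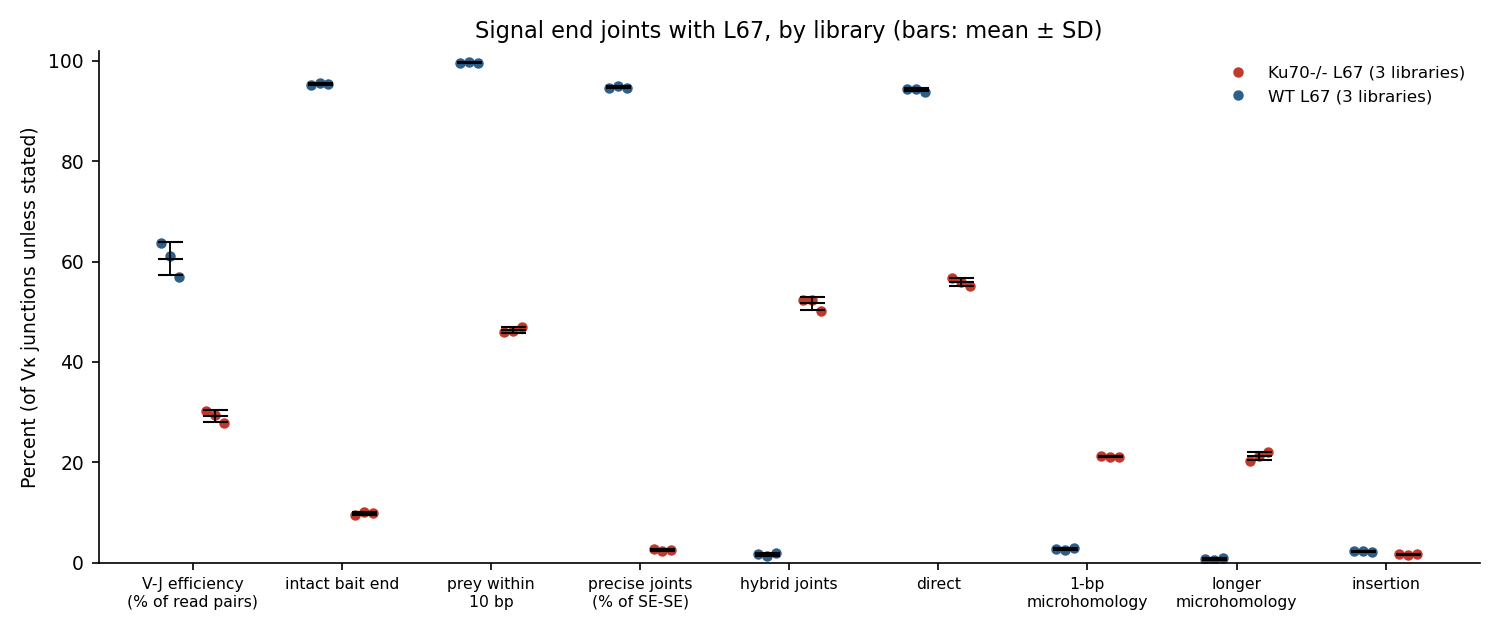
Percent of Vκ junctions (V-J efficiency: of read pairs; precise joints: of signal joints, SE-SE) in each of 3 Ku70-/- (red) and 3 WT (blue) libraries with L67; points are libraries, and the bars give the mean ± SD. The genotypes do not overlap on any of the 9 measures, with intact bait ends at 9.89% against 95.4% and hybrid joints at 51.7% against 1.68%.

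**Figure D2:**
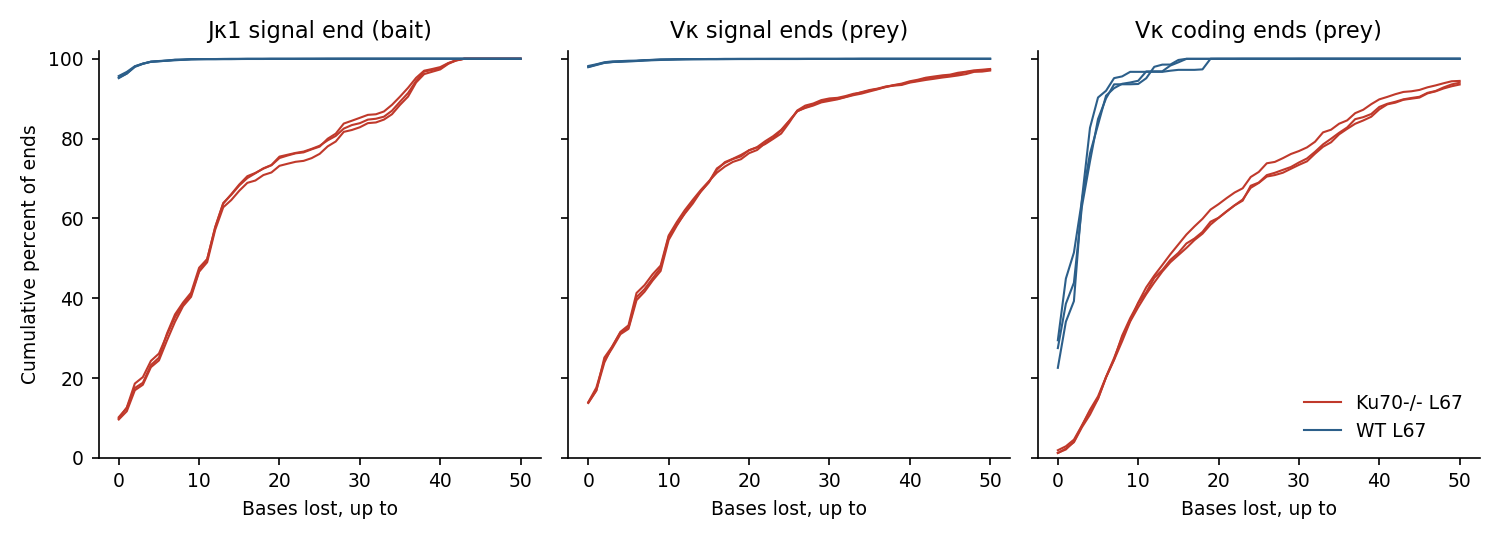
Cumulative percent (vertical axis) of the bait ends, signal preys or coding preys of Vκ junctions that had lost up to the number of bases on the horizontal axis. Each percentage is of that kind of end alone, with 1 line per library, red for Ku70-/- and blue for WT with L67. WT lines start near their top for the bait and signal prey, and the Ku70-/- lines climb slowly for all 3 ends, reaching the middle at 12 bases for the bait, 10 for signal preys and 14 to 15 for coding preys.

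As listed, Ku70-/- junctions held fewer direct joints and more MH. Direct joints, with neither shared nor added bases, were 56.7%, 56.0% and 55.1% of Vκ junctions in Ku70-/- libraries and 94.3%, 94.4% and 93.9% in WT libraries (55.9% ± 0.804 and 94.2% ± 0.297, SD, n = 3 each). Joints with 1 shared base were 21.2% ± 0.0937 against 2.77% ± 0.210, 7.66-fold more. Joints with longer MH were 20.3%, 21.4% and 22.1% in Ku70-/- libraries and 0.755%, 0.590% and 1.01% in WT libraries, 27.1-fold more by the means of 21.2% ± 0.864 and 0.784% ± 0.210. The size of both contrasts depends on the counting, since by distinct junctions 1 shared base was found in 18.9% against 8.59% and longer MH in 18.7% against 10.2%, still without overlap. Direct joints then turned direction, at 49.2% against 32.5%. MH of more than 4 bp made up 3.87% of Ku70-/- Vκ junctions and 0.22% of WT ones. Direct joints were still the largest class in Ku70-/- cells, and joints with MH over 1 bp shared 3.29 bases on average, fewer than the 3.98 in WT cells, without overlap.

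As listed, insertions were few in both genotypes and fewer in Ku70-/- cells, at 1.66%, 1.56% and 1.69% against 2.28%, 2.36% and 2.13% (1.64% ± 0.0694 and 2.25% ± 0.119, SD, n = 3 each). Counted once each they were 13.2% and 48.7% of distinct Vκ junctions. They were longer there, with 4.48 ± 0.27 bases added on average against 1.80 ± 0.05. G and C made up 40.4% of the bases added to signal joints in Ku70-/- cells and 41.5% in WT cells, and 47.8% and 48.5% in hybrid joints, and on both counts the groups overlapped.

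The structure differences depended on which joints were counted. Among signal joints alone they ran as above, with direct joints at 57.3% ± 1.05 in Ku70-/- cells and 95.3% ± 0.07 in WT cells. Among hybrid joints alone, direct joints were the more frequent in Ku70-/- cells, at 55.0%, 55.2% and 53.6% against 33.7%, 25.1% and 23.6%. There joints with 1 shared base were fewer (22.7% against 34.7%), those with longer MH overlapped between the genotypes (20.4% against 19.6%, exact permutation p = 0.8) and insertions were 2.25% against 18.2%. In Ku70-/- cells signal and hybrid joints were thus close in structure, with 57.3% and 54.6% direct, whereas WT hybrid joints differed from WT signal joints.

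The signal end was paired with coding ends far more often in Ku70-/- cells. Hybrid joints were 52.4%, 52.4% and 50.3% of Vκ junctions in Ku70-/- libraries and 1.72%, 1.38% and 1.95% in WT libraries (51.7% ± 1.26 and 1.68% ± 0.290, SD, n = 3 each), 30.7-fold more. The ratio of signal to hybrid joints was 0.934:1 in Ku70-/- cells and 59.0:1 in WT cells by the means of log2 values. Among Vκ junctions, the signal end bait in Ku70-/- cells thus met coding ends about as often as signal ends. Junctions near Jκ, described below, are not part of this ratio. Counted once each, hybrid joints were 50.5% to 51.5% of distinct Vκ junctions in Ku70-/- libraries and 12.4% to 16.8% in WT libraries.

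In Ku70-/- cells this share differed with the orientation of the Vκ segment. At inversional sites hybrid joints were 63.3%, 62.7% and 60.8%, and at deletional sites 30.2%, 31.3% and 29.8%. The ranges lay apart in all 3 libraries. WT cells showed 1.84%, 1.56% and 1.95% at inversional and 1.60%, 1.16% and 1.95% at deletional sites, where the ranges overlapped. By geometry, hybrid joints at inversional sites and signal joints at deletional sites both close an excised circle. Together these made up 65.4%, 64.7% and 64.0% of Ku70-/- Vκ junctions and 47.4%, 46.3% and 47.6% of WT ones. Of the 68 sites with at least 500 junctions in each Ku70-/- library, 42 of 46 inversional sites but 1 of 22 deletional sites had more hybrid than signal joints. The medians over sites were 63.3% and 28.9%. The lowest was Igkv1-132, a deletional site, at 12.7% ± 5.52 (SD, n = 3), and the highest Igkv4-70, an inversional site, at 88.1% ± 3.65. The share of preys within 10 bp varied less over these sites, from 27.1% ± 8.82 at Igkv1-88 to 61.5% ± 8.17 at Igkv12-98 around a median of 46.6%.

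**Figure D3:**
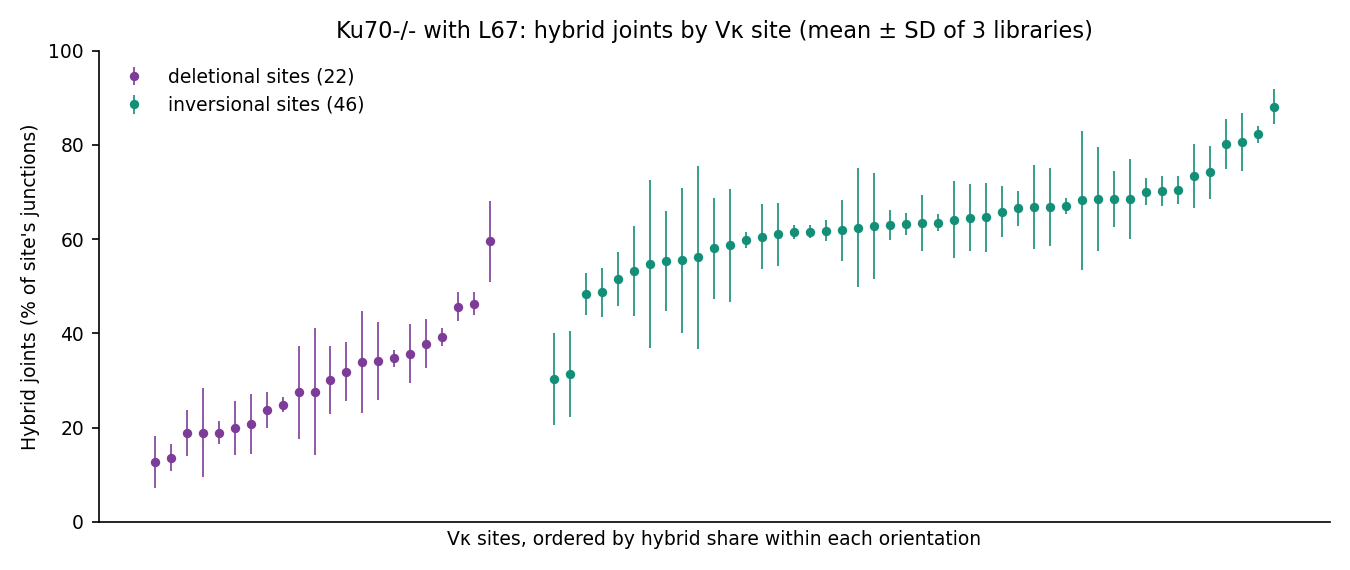
Hybrid joints as a percentage of the junctions at each of 68 Vκ sites in Ku70-/- cells with L67, points giving the mean and bars the SD of 3 libraries, with sites ordered by value within each orientation. Deletional sites (22) centre on 28.9% and inversional sites (46) on 63.3%.

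Vκ usage was measured at 138 break sites from 67506211 to 70654172 on chromosome 6, found as pileups of WT signal end junctions next to CAC, the start of a heptamer. Of these, 92 lie beside annotated Vκ genes, 111 carry the full CACAGTG, 63 are deletional and 75 inversional. A break used only in Ku70-/- cells would not be among them. Ku70-/- libraries had junctions at 123, 123 and 119 of the sites and WT libraries at 131, 126 and 130. Usage is given as junctions per 1000 Vκ junctions of a library, signal and hybrid joints together, so it is relative to the lower Ku70-/- yield. Of 112 sites with at least 50 junctions on average, limma called 28 higher (25.0%) and 26 lower (23.2%) in Ku70-/- cells at an adjusted p under 0.05, and the median site had a log2 difference of -0.15. At 67 sites the groups did not overlap. The split depended on the counting, with 17 higher and 33 lower of 104 sites by distinct junctions, and the number on the libraries fitted, with 11 higher and 10 lower in a fit that took in the 6 DMSO libraries. The 26 lower include 5 sites, described below, that Ku70-/- cells almost lack. Those 5 passed the filter through WT cells alone, so they had to differ and are a description, and without them 21 of 107 were lower. Igkv8-28, among the 28 higher, passed through Ku70-/- cells alone and is a description too. It remains in the counts of higher sites given below for its orientation, heptamer, sub-TAD and family. Other sites that met the filter through a single genotype may remain among the calls.

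The sites called lower were mostly deletional and those called higher mostly inversional, to be read beside 25.0% higher and 23.2% lower over all sites. Of 47 deletional sites tested 3 were higher and 19 lower, with a median log2 difference of -0.59 (14 of 42 lower without the 5 nearly absent sites), and of 65 inversional sites 25 were higher and 7 lower, with a median of 0.18. Those 25 include the site that passed the filter through Ku70-/- cells alone, which is a description. Deletional sites held 32.7%, 32.9% and 34.0% of Ku70-/- Vκ junctions and 47.1%, 46.0% and 47.6% of WT ones (33.2% ± 0.691 and 46.9% ± 0.818, SD, n = 3 each). These shares pool signal and hybrid joints, and Ku70-/- hybrid joints lay mostly at inversional sites. By the hybrid shares given above, signal joints alone were split between the orientations in nearly the same way in both genotypes. The 97 tested sites with CACAGTG had 26 higher and 23 lower (median log2 difference -0.10), shares close to those over all sites, and the 15 with another heptamer 2 and 3 (median -0.46).

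The Vκ region is divided into chromatin domains called sub-TADs. By signal and hybrid joints together, sTAD4 was used more and sTAD3 less in Ku70-/- cells. The sTAD4 rise lay at its inversional sites, at 284 against 199 per 1000, while its deletional sites overlapped at 9.58 against 12.1. Most Ku70-/- joints at inversional sites were hybrid, and sub-TAD shares of signal joints alone were not measured. sTAD4, where 29 of 33 sites are inversional, held 29.6%, 29.4% and 29.0% of Ku70-/- and 20.9%, 21.6% and 20.8% of WT Vκ junctions, with 11 of 29 tested sites higher and 4 lower, beside 25.0% and 23.2% over all sites. sTAD3 held 16.7%, 17.3% and 16.4% against 22.0%, 23.1% and 23.2%, with 2 of 25 higher and 9 lower. sTAD1-2, the domain farthest from Jκ, held 16.5% ± 0.651 against 16.9% ± 0.592, which overlapped. sTAD5, nearest to Jκ, held 37.3% ± 0.320 against 39.2% ± 0.585. That last difference ran the other way, at 37.3% against 35.9%, without 5 sites described below that Ku70-/- cells almost lack. Within sTAD5 11 of 26 inversional sites were higher and 0 lower, and 7 of 12 deletional sites were lower and 0 higher, or 2 of 7 without those 5 sites. The 11 higher sites include the site that passed the filter through Ku70-/- cells alone, which is a description.

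The signal sequences of the sites that changed most and of those used most show how alike many are. They are given from heptamer to nonamer, both in capitals, on mm9:
Igkv4-70 (chr6:69217854-69217881, minus strand): CACAGTGatacagactggaACAAAAACC
unannotated site (chr6:69233760-69233787, minus strand): CACAGTGatacagactggaACAAAAACC
Igkv4-50 (chr6:69650733-69650760, minus strand): CACAGTGatacagactggaACAAAAACC
Igkv8-28 (chr6:70093559-70093586, minus strand): CACAGTGcttcagcctcctACACAAACC
Igkv8-19 (chr6:70290842-70290869, minus strand): CACAGTGcttcagcctcctACACAAACC
Igkv3-10 (chr6:70523225-70523252, plus strand): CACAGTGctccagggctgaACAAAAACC
Igkv3-2 (chr6:70649062-70649089, plus strand): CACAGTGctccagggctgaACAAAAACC
Igkv16-104 (chr6:68376067-68376094, plus strand): CACAGTGatacaagtcataACAAAAACC
The first 3 are the same 28 bases, as are the Igkv8 pair and the Igkv3 pair. Longer stretches are shared too. The 50 bases on the signal side of the break had another exact copy in the locus at 15 of the 28 sites called higher, 5 of the 26 called lower and 11 of the 58 others, and the coding side at 9, 1 and 5. Reads from such sites could be placed at the wrong copy. The effect of this on usage was not tested, and values for the sites above other than Igkv4-50 and Igkv16-104 carry that uncertainty, as do those of Igkv12-46, Igkv4-80, Igkv12-44, Igkv3-7, Gm16774, Igkv3-4 and Igkv3-1. Every Igkv4 site called higher except Igkv4-50 had such a copy on the signal side, some of them 6, as had Igkv4-55 and Igkv4-59, which were not called. Counts of called sites by family and sub-TAD, those of Igkv4 and sTAD4 above all, carry the same uncertainty.

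The largest rises were at inversional sites that WT cells hardly used. The unannotated site at chr6:69233787 had 1891, 1462 and 1691 junctions in Ku70-/- libraries and 37, 188 and 236 in WT libraries, 11.5 against 0.520 per 1000 (log2 4.86, SE 0.73, limma adjusted p = 0.00261). Igkv4-70 had 1697, 905 and 1077 against 126, 119 and 158 (8.36 against 0.447 per 1000, log2 4.19, SE 0.27, limma adjusted p = 8.73e-05). Igkv8-28 had 379, 238 and 563 against 112, 16 and 3, or 2.72 against 0.138 per 1000. Igkv8-28 passed the filter through Ku70-/- cells alone, so its rise is a description and its limma p-value does not test it. The fitted log2 difference of 5.29 had the wide SE of 1.16 (limma adjusted p = 0.0117), ran from 4.18 to 6.51 when 1 library was left out, both ends set by a WT library, and was called neither among signal joints alone (log2 2.02, limma adjusted p = 0.402) nor by distinct junctions (log2 0.94). Hybrid joints were 80.7%, 88.1% and 87.0% of the Ku70-/- junctions at these 3 sites, above the median inversional site.

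Next came Igkv8-19, Igkv9-123, Igkv9-124, Igkv11-125, Igkv4-80, Igkv14-111 and Igkv5-48, with log2 differences of 3.26 down to 1.72. Igkv4-80 had 4791, 4463 and 3530 junctions in Ku70-/- libraries and 2702, 2878 and 2266 in WT libraries, 29.1 against 8.62 per 1000. Igkv11-125, a deletional site, had 3003, 3331 and 4120 against 2345, 2227 and 1757, 24.0 against 6.94 per 1000. In both the Ku70-/- libraries lay above the WT libraries in counts as well as in shares, although Ku70-/- libraries held fewer Vκ junctions.

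By family, beside 25.0% higher and 23.2% lower over all sites, 4 of 5 tested Igkv5 sites were higher, 4 of 8 Igkv8 sites, 8 of 21 Igkv4 sites (with 2 lower) and 2 of 4 Igkv9 sites (with 1 lower). The 4 higher Igkv8 sites include the site that passed the filter through Ku70-/- cells alone, which is a description. Igkv4 sites together took 221 ± 1.10 per 1000 in Ku70-/- cells and 151 ± 0.895 in WT cells (SD, n = 3 each). Family totals also pool signal and hybrid joints. Igkv3 sites, all deletional and near Jκ, were lower at 6 of 8 and took 30.9 ± 2.94 against 109 ± 5.28 per 1000. Of those 6, 4 are among the nearly absent sites, without which 2 of 4 were lower and the family took 30.9 ± 2.94 against 61.7 ± 2.29. Igkv1 sites took 129 ± 3.13 against 169 ± 0.917, with 3 of 8 lower and 0 higher, beside 23.2% lower over all sites.

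Falls outside the 5 nearly absent sites were smaller. Igkv3-10 had 2090, 1948 and 1906 junctions in Ku70-/- libraries and 11158, 9531 and 9754 in WT libraries, 13.6 against 33.5 per 1000 (log2 -1.30, SE 0.11, limma adjusted p = 0.000298). Igkv4-58, an inversional site, had 1048, 960 and 897 against 4955, 5595 and 4346, with the same log2 difference of -1.30. Igkv9-129 fell by 1.52 on the log2 scale. The unannotated sites at chr6:68262354 and chr6:68544371 fell by 2.38 and 2.21, the former at limma adjusted p = 0.0478, a call lost without any 1 of 5 of the libraries (log2 -2.81 to -1.63).

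The sites used most were partly shared. Igkv1-135 led in both genotypes, at 53.3, 46.5 and 45.9 per 1000 in Ku70-/- libraries and 56.0, 48.2 and 51.3 in WT libraries, which overlapped (log2 -0.09, limma adjusted p = 0.560). Igkv12-44 was also among the first 5 in both, at 34.4 against 31.01 per 1000 (limma adjusted p = 0.423). Igkv6-32 (35.1 against 22.2 per 1000) and Igkv4-50 (34.7 against 11.4 per 1000) joined them in Ku70-/- cells. Igkv16-104 and Igkv1-88 did so in WT cells and were lower in Ku70-/- cells, at 21.6 against 43.7 and 20.1 against 38.02 per 1000. Usage rests on the way joints are counted at several of these sites. With each distinct junction counted once, 50 sites were called, of which 27 were among the 54, and Igkv1-135, Igkv1-88 and Igkv9-124 turned direction (log2 0.51, 0.14 and -0.51). With signal joints only, 43 were called, of which 29 were among the 54, and Igkv1-135 turned too (log2 0.55).

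A run of 5 neighbouring sites was almost absent from Ku70-/- cells. Igkv3-7, Gm16774, Igkv3-4, Igkv3-3 and Igkv3-2 had 1, 1, 1, 0 and 1 junctions over the 3 Ku70-/- libraries together and 11571, 4691, 8360, 1289 and 21628 over the 3 WT libraries. With 3 counts taken for the Ku70-/- group at each site, usage as listed was 1859-fold, 754-fold, 1343-fold, 207-fold and 3474-fold lower. These folds are not bounds, since most of the sites had 1 count rather than 0, and WT counts hold many copies. The span chr6:70557031-70650062, which holds these sites with 1 kb on either side, had 1, 2 and 1 junctions of any kind in Ku70-/- libraries and 18273, 15534 and 13737 in WT libraries. Counted once each, these were 1, 2 and 1 against 126, 94 and 107 distinct junctions. Igkv3-10 and Igkv3-9 on one side and Igkv3-1 on the other, nearer to Jκ, were used in both genotypes, Igkv3-1 at 3.55 against 5.52 per 1000 (limma adjusted p = 0.169). All 5 have the heptamer, spacer and nonamer of Igkv3-10 given above. In WT cells these sites made up 5.74%, 5.09% and 4.82% of Vκ junctions. Whether the Ku70-/- line still carries this span was not tested.

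**Figure D4:**
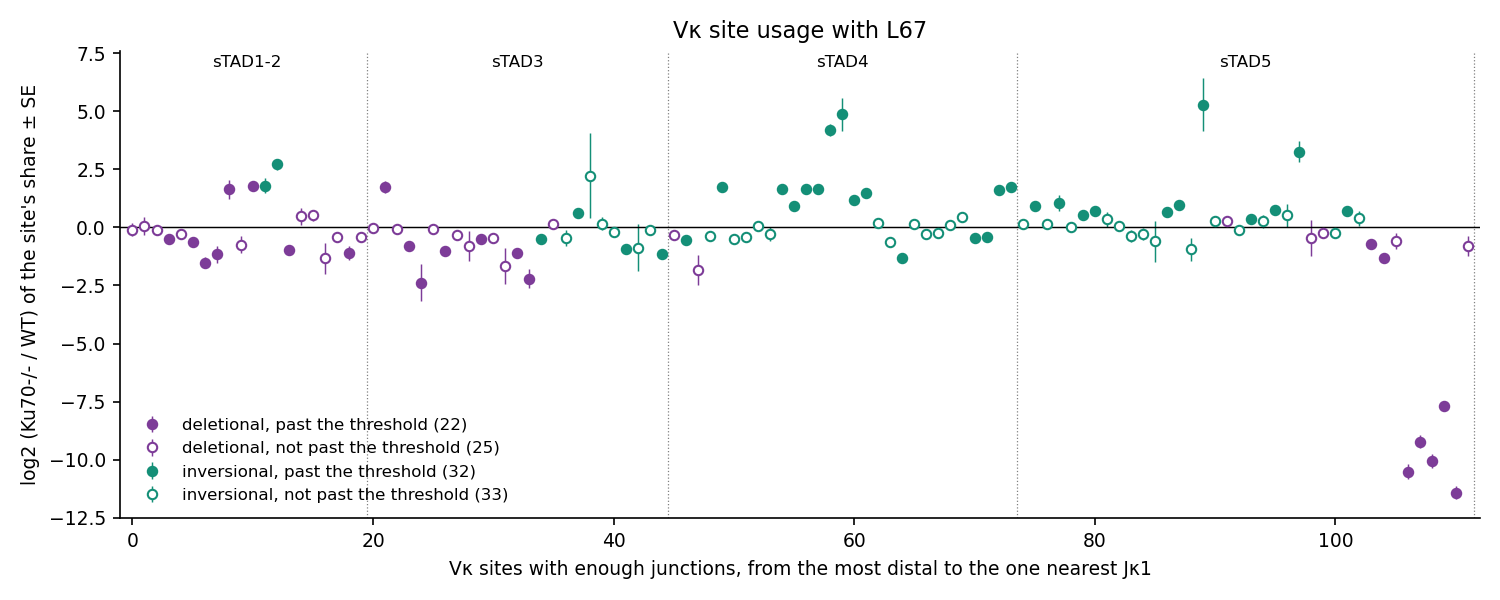
Log2 difference in usage (Ku70-/- over WT with L67, per 1000 Vκ junctions with 1 junction added) for 112 Vκ sites in order along chromosome 6, towards Jκ on the right; bars are SE from limma, colours give the orientation and filled points passed the adjusted threshold. Of 54 called sites 28 lie above and 26 below the zero line. Igkv8-28, among the 28, passed the filter through Ku70-/- cells alone. The 5 deep points near the right are sites with 0 or 1 Ku70-/- junction. These 5 passed the filter through WT cells alone, and their fitted depth depends on the added junction.

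Junctions close to the bait break were more frequent in Ku70-/- cells. The region within 2 kb of the Jκ1 break took 7.27%, 7.22% and 7.41% of read pairs in Ku70-/- libraries and 0.847%, 1.10% and 0.830% in WT libraries, 7.89-fold more, or 13.4-fold more by distinct junctions. Most in Ku70-/- cells joined the signal end to the coding end of its own segment, Igkj1, at 27671 ± 636 junctions a library against 878 ± 137 in WT cells (SD, n = 3 each). That was 75.8% of the region's junctions against 19.1%, or 61.8% against 32.4% of distinct ones. These joints had lost a median of 16 coding bases against 2, and 12.7 bait bases against 1.67. Exact rejoining restores the germline sequence and cannot be told apart from an uncut locus.

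The other Jκ segments, which can serve as further targets of RAG1/2 in the locus, differed in kind. Igkj5 coding ends had 541 ± 21.0 junctions a library in Ku70-/- cells and 2054 ± 394 in WT cells, where they were 44.3% of the region's junctions. Igkj4 coding ends overlapped between genotypes (1495 ± 254 and 1275 ± 251). Signal ends of Igkj2, Igkj4 and Igkj5 were joined 1255, 1251 and 649 times on average in Ku70-/- libraries and 43.0, 192 and 10.0 times in WT libraries. None of these signal end counts overlapped between genotypes. Coding ends of Igkj2 were higher in Ku70-/- cells on either count, at 1457 ± 323 against 49.7 ± 43.1 junctions and 158 ± 6 against 7.67 ± 6.66 distinct ones. The few at Igkj3 were too, at 71.3 against 0.333 junctions and 6.67 against 0.333 distinct ones. The results for Igkj4 and Igkj5 coding ends rest on the copies. Counted once, Igkj5 coding ends overlapped (57.3 ± 7.23 and 51 ± 4.36 distinct junctions) and Igkj4 coding ends were higher in Ku70-/- cells (120 ± 4.36 and 36.0 ± 4.36).

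Translocations, all junctions off chromosome 6, were listed 1781, 2621 and 1778 times in Ku70-/- libraries and 349, 597 and 334 times in WT libraries, a log2 difference of 2.30 (4.92-fold). Distinct ones numbered 243, 236 and 299 against 54, 50 and 68. The groups did not overlap by either count. Distinct Vκ junctions differed more, at 14418, 13001 and 14019 against 2156, 1728 and 2096. Relative to these, distinct translocations ran the other way, lower in every Ku70-/- library than in any WT library. Counting once merges alike precise joints, most of them WT, so this ratio is not a rate per V-J joint. As a share of all junctions as listed, translocations were higher in Ku70-/- cells, by 3.03 on the log2 scale, without overlap. Distinct translocations outside the antigen receptor loci were 182, 155 and 231 against 34, 35 and 49, spread over 165, 135 and 198 bins of 1 Mb against 33, 30 and 42. The mitochondrial genome led with 2, 2 and 6 distinct junctions in Ku70-/- libraries and 0 in WT libraries. Of the bins that followed, 4 on chromosomes 19 (3 to 4 Mb) and 11 (57 to 58, 100 to 101 and 118 to 119 Mb) held 5, 4, 4 and 4 distinct junctions over all 6 libraries, and the one at 57 Mb had all 4 in a single WT library. Another 2 bins were tied at 4, on chromosomes 15 (78 to 79 Mb) and 3 (54 to 55 Mb), each with all 4 in a single Ku70-/- library.

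The partner loci differed between genotypes. The Igλ light chain locus (Igl, chromosome 16, 19 to 20 Mb), which RAG1/2 also cuts in B lineage cells, had 52, 77 and 60 distinct junctions in Ku70-/- libraries and 1, 0 and 1 in WT libraries. Relative to distinct Vκ junctions this was 3.61, 5.92 and 4.28 against 0.464, 0 and 0.477 per 1000. The T cell receptor Tcra/Tcrd locus (chromosome 14, 53 to 55 Mb) ran the other way, at 7, 3 and 4 against 19, 14 and 16 distinct junctions. As listed, copies included, its counts of 34, 127 and 33 against 203, 286 and 124 overlapped. The heavy chain locus Igh had 2, 1 and 4 against 0, 1 and 2, and Tcrb, on chromosome 6, had 1 in a single Ku70-/- library. Tcrg had 0 of 778 in Ku70-/- and 0 of 172 in WT libraries, which allow shares of up to 0.386% and 1.74% of distinct translocations. The share of all translocations that fell in these loci varied, at 26.1%, 46.9% and 29.9% against 58.5%, 48.6% and 46.4%, and overlapped (exact permutation p = 0.2). Igl in the second Ku70-/- library, with 1099 of 2621 junctions, set the high value.

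**Figure D5:**
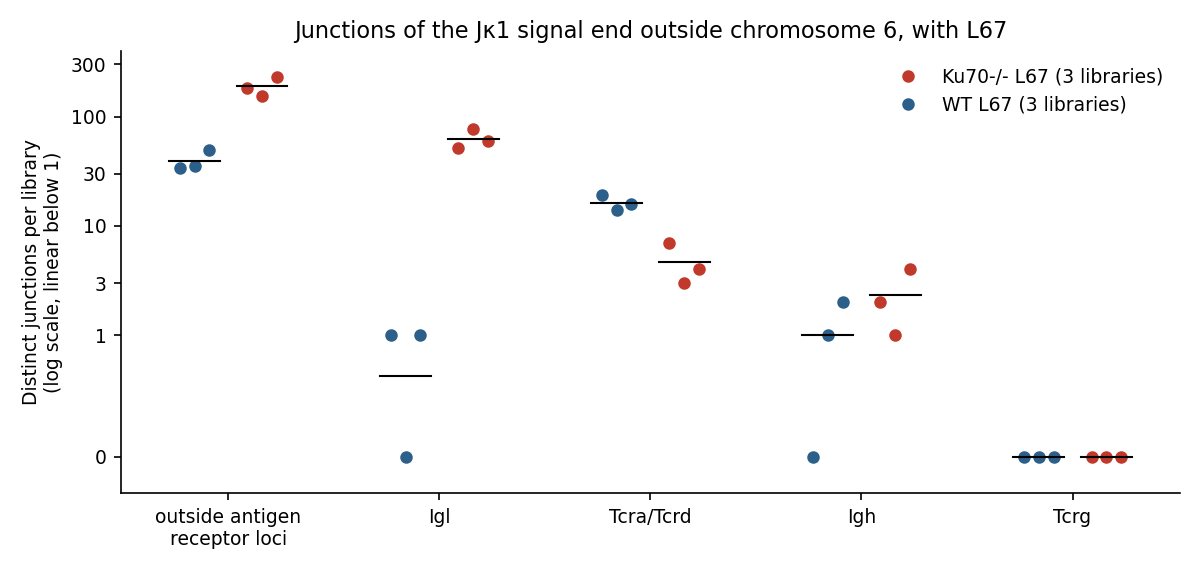
Distinct junctions off chromosome 6 in each library (points, with the group mean as a line) outside antigen receptor loci and at Igl, Tcra/Tcrd, Igh and Tcrg, with Ku70-/- in red and WT in blue, L67 in both, on a log axis that is linear below 1. Ku70-/- libraries lie above WT outside the receptor loci (155 to 231 against 34 to 49) and at Igl (52 to 77 against 0 to 1), below WT at Tcra/Tcrd (3 to 7 against 14 to 19), and overlap WT at Igh and Tcrg.

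Igl junctions in Ku70-/- cells fell into a few clusters. Of 189 distinct ones, 188 were assigned to 6 break positions, beside Iglv1 (72), Iglc3 (49), Iglv2 (19), Iglv3 (12), Iglc2 (10) and a place with no gene within 200 bp (26). Each position was placed with these same junctions, at a nearby sequence like a heptamer, so lying next to CAC was fixed in advance. Whether RAG1/2 made these breaks was not tested. Signal preys numbered 88 and coding preys 100. The preys lay a median of 13 bases from the break, 41.5% within 10 bp, and the bait was intact in 4. Direct joints numbered 85, 1-base MH 51, longer MH 38 and insertions 15. Set against distinct Vκ junctions of the same cells, direct joints were 45.0% at Igl and 49.2% at Vκ, insertions 7.94% and 13.2%, and intact bait ends 2.12% and 6.97%, differences that were not tested.

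At Tcra/Tcrd the ends differed. In WT cells 45 of 49 distinct junctions were at coding ends of Vα segments, led by Gm16591 and Gm16980 with 10 each, and in Ku70-/- cells 11 of 14 were at the signal side of Gm16591 and 1 at its coding side. The bait was intact in 2 of the 49 WT and 1 of the 14 Ku70-/- junctions there. For all distinct translocations, the bait was intact in 4.94%, 5.08% and 6.69% of Ku70-/- junctions and 57.4%, 28.0% and 42.6% of WT ones. Insertions were fewer in Ku70-/- cells, at 11.9%, 13.6% and 14.7% against 18.5%, 36.0% and 32.4%, and direct joints more frequent, at 43.2%, 41.5% and 39.1% against 27.8%, 28.0% and 33.8%. With copies included, direct joints overlapped (42.7% against 39.3%, exact permutation p = 0.8), and intact bait ends and insertions did not.

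The genotype difference with L67 was set against that with DMSO. V-J Eff in Ku70-/- cells was 29.2% with L67 and 28.8% ± 0.695 with DMSO (29.1% without the library that stood apart), which overlapped, and in WT cells 60.6% with L67 and 65.8% ± 1.53 with DMSO, which did not. The difference between genotypes was 5.57 percentage points smaller with L67 (exact permutation within genotype, p = 0.05, adjusted p = 0.382 over 18 results), and 5.34 smaller without the DMSO library that stood apart (exact permutation p = 0.08). Hybrid joints in Ku70-/- cells were 52.4%, 52.4% and 50.3% with L67 and 47.7%, 47.4% and 47.9% with DMSO, and in WT cells 1.68% and 1.72%. That difference between genotypes was 4.08 points larger with L67 (exact permutation p = 0.05, adjusted p = 0.382), and 4.09 points larger without that library (exact permutation p = 0.1). Of the 18 results, 2 had p at 0.05 or less before adjustment and 0 after it.

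In Ku70-/- cells, 46.4% of preys were within 10 bp of the break with L67, against 56.2%, 52.0% and 51.5% with DMSO (the first in the library that stood apart), and intact bait ends were 9.89% against 11.4%, 12.2% and 11.5%. On neither did the 3 L67 libraries overlap the DMSO libraries, with or without the one that stood apart. Preys within 10 bp in WT cells were 99.6% with L67 and 99.7% with DMSO, which overlapped. For these preys the genotype difference changed by -6.73 points (exact permutation within genotype, p = 0.085, adjusted p = 0.382). Without that library the change was -5.26 points (exact permutation p = 0.17). Intact bait ends were lower with L67 in WT cells too, at 95.4% against 95.9% with DMSO, without overlap. The change in the genotype difference was -1.22 points (exact permutation within genotype, p = 0.16). The sTAD4 share was higher with L67 in both genotypes, by 3.86 points in Ku70-/- and 2.92 in WT cells, again without overlap. Without the DMSO library that stood apart, the Ku70-/- DMSO mean was 26.4% against 29.3% with L67, and the rises in the 2 genotypes differed by 8.2e-05 points (exact permutation p = 0.94). No Vκ site was called by limma between L67 and DMSO in Ku70-/- cells (6 at an unadjusted p under 0.05, 12 without the library that stood apart), in WT cells (2), or in the difference between genotypes (2, and 9 without that library).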

How the data were processed

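Junction lists of the signal end libraries with STI-571 were used. The authors took each library to 500000 read pairs, mapped it to mm9 with duplicates kept (the submitters' processing notes name Bowtie2) and used their own script to add junctions near the bait; the deposited values are positions, strands and read coordinates, 1 junction per line, from which all counts and percentages were computed here. Vκ break sites came from the 9 WT signal end libraries with STI-571 and DMSO, L67 or L82-G17, 3 of each, so including the 3 compared here: a position with 30 or more junctions, the highest within 50 bp, next to CAC. A junction went to the nearest site within 200 bp. Prey strand told signal from coding ends. Overlap of bait and prey on the read was MH, a gap an insertion, up to 20 bp. Genes came from GENCODE on NCBIM37, the assembly of mm9 (chromosome 6 of 149517037 bases), and sequences from that genome; bases of the printed joints were those of the bait and prey in it. Joints were checked against deposited read bases. Sub-TAD bounds were read from a map in the study's supplement, so sites near a bound may be misplaced. Translocation counts were compared on the log2 scale.

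Library values were compared by exact two-sided permutation of means, and the genotype difference with L67 against that with DMSO by permuting L67 and DMSO within each genotype (400 arrangements, smallest p 0.005), which assumes no L67 effect in either. Site usage was fitted with limma 3.58.1 (R 4.3.3) on log2 of junctions per 1000 with 1 junction added, at adjusted p under 0.05, and tested on simulated data. Other steps used Python 3.11.15, numpy 2.4.6, pandas 2.3.3 and matplotlib 3.10.9. Named sites were the 10 largest rises and falls past the threshold without overlap, the 5 most used of each genotype, every site nearly absent from Ku70-/- cells, the receptor loci and the 5 bins with most distinct junctions. Members and lists were chosen with earlier results of these data known. Alternatives were other windows, denominators, site sets, classes, counting distinct junctions once, other filters and leaving out each library. Counts include amplified copies, so no counting intervals are given, and limits for 0 cover counting error only.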

Additional observations from a re-analysis of the deposited data

Results flagged for a closer look

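V-J efficiency and the hybrid joint share are listed because the test of their genotype difference with L67 against that with DMSO reached p = 0.05 by exact permutation before adjustment, a call that did not hold after it. V-J efficiency differed by -31.4 percentage points between Ku70-/- and WT with L67 and by -37.0 with DMSO, a change of 5.57 points (exact permutation p = 0.05). The hybrid share differed by 50.0 points with L67 and 45.9 with DMSO, a change of 4.08 points (exact permutation p = 0.05). Both had adjusted p = 0.382 over the 18 results, and neither reached 0.05 without the Ku70-/- DMSO library with few distinct junctions (5.34 points with p = 0.08 and 4.09 points with p = 0.1, exact permutation). Permuting within genotype assumes no L67 effect in either, and the cause of these differences was not tested.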

How the results depend on the processing

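Of 231 values under alternatives, those of named sites aside, 215 kept their direction and call and 16 did not. With each distinct junction counted once, the difference in V-J efficiency (Ku70-/- minus WT) was 2.36 points and in direct joints 16.7 points, both turned around (this count merges WT precise joints that are alike, WT junctions also had more copies, and the part of either was not tested); sTAD5 was -1.06 and no longer called, and 17 sites were higher and 33 lower. With hybrid joints only, direct joints differed by 27.1 and 1-base MH by -12.0 points, both turned around, and longer MH by 0.856, no longer called. Without the 5 nearly absent sites, an alternative chosen after seeing the data, sTAD5 was 1.42 points higher. The comparison of L67 with DMSO without the low DMSO library, also added later, gave 5.34 points for V-J efficiency and 4.09 for hybrid joints. A fit over 12 libraries called 21 sites (11 higher, 10 lower), and over 11, without that DMSO library, 52. Leaving out each library in turn gave 40 to 48 sites called, 23 to 27 higher and 16 to 22 lower (16 without the third WT library). The receptor locus share of translocations then differed by -23.2 to -12.8 points, and the groups no longer overlapped without the second Ku70-/- or the third WT library. Of 26 named sites, Igkv9-124, Igkv1-135 and Igkv1-88 turned with distinct junctions (-0.51, 0.51 and 0.14), and Igkv1-135 with signal joints only (0.55); 7, 8 and 5 named sites lost their call with distinct junctions, 12 libraries and signal joints only. No paired analysis was possible because the labels give no replicate numbers. With 3 libraries a group, differences within the spread between libraries were not detectable.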
